A study of Rattus norvegicus with 31 samples.

Results

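Hmgcs1, Idi1, Fdps, Fdft1, Sqle, Cyp51 and Insig1 are a set of 7 genes of cholesterol synthesis and its control, found by symbol among the 11289 genes of the deposited tables. All 7 were listed, and all 7 passed the filter on low counts that left 10082 genes for testing. They were followed in gastrocnemius, a calf muscle, of 31 female Sprague Dawley rats, 1 library per animal. The study asked how the muscle transcriptome differs between temperatures and between controls and rats lacking Ucp1, which uncouples respiration in brown fat.

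The groups were control rats at room temperature (n = 8), Ucp1 knockout rats at room temperature (n = 7), control rats at 4 °C (n = 8) and Ucp1 knockout rats at 4 °C (n = 8). All animals were 7 months old, ate chow 5001 and spent 14 days at their temperature, and no other allele or agent is named in the labels. The knockout is labelled without a tissue or promoter, and Ucp1 was not analysed here, so the genotype rests on the labels. Total counts ran from 6.56 to 11.9 M per library (median 9.26 M). Tissue identity was checked with 12 muscle fibre markers, whose summed level was 127000 to 249000 CPM, counts scaled to a common library total, in every library. On the second principal component of all genes, which held 14.1% of the variance, controls 1 and 2 of the room temperature group lay far from the other libraries. With both left out, 0 of 7 members passed in each comparison, as with them.

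Cells make cholesterol from acetyl-CoA through the mevalonate pathway. Its isoprenoid intermediates also feed ubiquinone, dolichol and protein prenylation, which muscle needs whether or not it makes much sterol. When sterol in the endoplasmic reticulum is low, SREBP2 and its partner SCAP are released from retention by the INSIG proteins. SREBP2 then switches on the genes of the pathway together, so that they are commonly read as 1 set. SREBP1 acts in the same way on genes of fatty acid synthesis.

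No member passed the test in any of the 6 comparisons that the design allows. With edgeR's quasi-likelihood test and a Benjamini-Hochberg adjusted p under 0.05 over all genes, 0 of 7 members changed with cold in controls, against 0.853% of all genes tested. In knockouts, 0 of 7 changed with cold, against 1.38% of all genes. For cold averaged over the genotypes, 0 of 7 passed, against 5.65%. At room temperature 0 of 7 differed between genotypes (background 0%), in the cold 0 of 7 did (background 0.00992%), and 0 of 7 passed for the interaction of genotype with cold (background 0%). DESeq2 also called 0 members in each of the 6. At an unadjusted p under 0.05 the counts were 0 of 7 in 5 of the comparisons, where 14.2%, 14.3%, 19.5%, 6.28% and 7.31% of all genes passed in the same order. The knockout comparison at room temperature had 1 of 7 (Hmgcs1, lower), against 7.06% of all genes in either direction and 4.19% lower. Group ranges did not overlap for 0 of 7 members in each of the 4 comparisons between a pair of groups. The share of all genes without overlap was 0.436% for cold in controls, 0.546% for cold in knockouts, 0.0595% for knockout at room temperature and 0.00992% for knockout in the cold, so the members' overlap is the common case.

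The median log2 change of the 7 members was -0.07 with cold in controls, where the median of all genes was -0.03, and -0.03 with cold in knockouts, where all genes had 0.02. Between genotypes the members' median was 0.08 at room temperature (all genes -0.03) and 0.10 in the cold (all genes 0.04). For the interaction it was 0.09 (all genes 0.08). Comparisons that share a group of animals are not independent of each other.

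**Figure D1:**
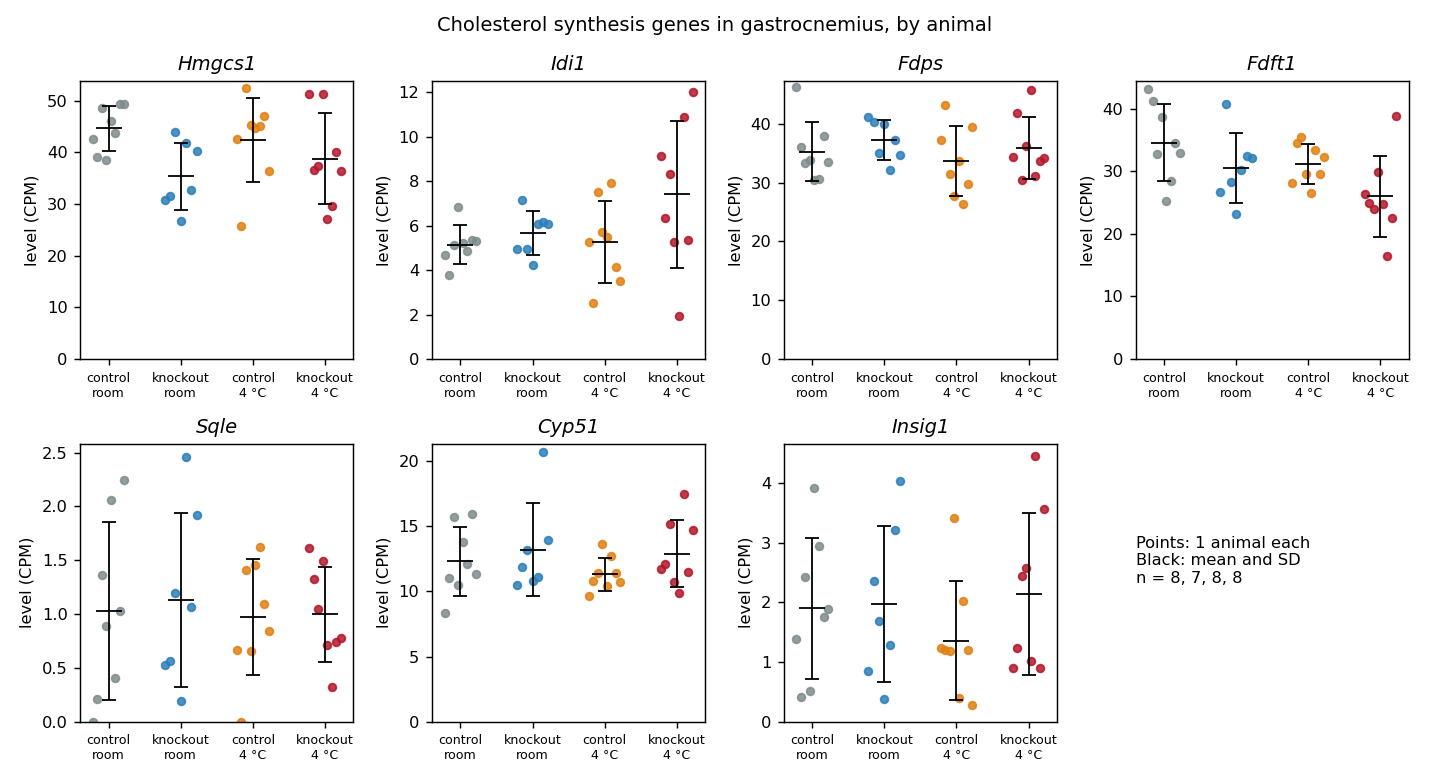
Level in CPM (vertical axes, from 0) of each of the 7 genes in every animal, by group. Points are animals, and black bars are the group mean and SD. The 4 groups overlap for every gene, and the cold knockouts spread widest for Idi1.

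The levels below are CPM after scaling by the trimmed mean of M values. Libraries read 1 tag near the 3' end of each transcript, so a level does not grow with transcript length. The SD covers animals, and the log2 changes carry their standard error.

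Hmgcs1 makes HMG-CoA, an early intermediate of the mevalonate pathway. Its lowest, median and highest levels were 38.6, 45.0 and 49.4 CPM in controls at room temperature and 26.8, 32.8 and 43.9 CPM in knockouts at room temperature. In the cold they were 25.8, 45.0 and 52.5 CPM in controls and 27.2, 37.0 and 51.4 CPM in knockouts. None of the 7 knockouts at room temperature reached above the control median, though the ranges overlapped. The mean was 44.7 ± 4.35 CPM (SD, n = 8) against 35.4 ± 6.52 CPM (SD, n = 7), a log2 difference of -0.34 ± 0.14 with an interval from -0.63 to -0.05. Its unadjusted p was 0.0253 and its adjusted p was 0.698, so the difference did not pass. In the cold the genotypes differed by -0.13 ± 0.14, and the difference between these differences, the interaction, was 0.21 ± 0.20 (adjusted p = 0.895). Cold itself left Hmgcs1 within -0.36 to 0.21 in controls and within -0.16 to 0.42 in knockouts on the log2 scale (95% intervals).

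Idi1 interconverts the 5-carbon isoprene units. Controls at room temperature had 3.76, 5.18 and 6.86 CPM (lowest, median, highest) and knockouts at room temperature 4.22, 6.06 and 7.15 CPM. In the cold the same values were 2.53, 5.36 and 7.91 CPM in controls and 1.94, 7.33 and 12 CPM in knockouts. The cold knockouts thus held both the lowest and the highest animal of the study, and the coefficient of variation was 16.8% and 17.6% in the room temperature groups against 35.3% and 44.6% in the cold groups; this spread was not tested. Knockouts exceeded controls in the cold by 0.49 ± 0.24 on the log2 scale (95% interval -0.00 to 0.98, adjusted p = 0.796). The cold difference of Idi1 was 0.39 ± 0.25 in knockouts (adjusted p = 0.518) and 0.04 ± 0.25 in controls (adjusted p = 0.956), and neither passed.

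Fdps joins isoprene units into farnesyl diphosphate, from which the sterol and prenylation routes part. It varied little between groups, at 30.4, 33.7 and 46.3 CPM in controls and 32.2, 37.3 and 41.2 CPM in knockouts at room temperature. In the cold it was at 26.4, 32.6 and 43.3 CPM in controls and 30.4, 34.2 and 45.8 CPM in knockouts. Means ran from 33.7 ± 5.97 CPM (SD, n = 8) to 37.2 ± 3.41 CPM (SD, n = 7). The cold changes were -0.07 ± 0.11 in controls and -0.05 ± 0.12 in knockouts (adjusted p = 0.801 and 0.913).

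Fdft1, squalene synthase, commits farnesyl diphosphate to sterols. Its lowest, median and highest levels were 25.2, 33.7 and 43.1 CPM in controls and 23.1, 30.2 and 40.8 CPM in knockouts at room temperature. The cold groups had 26.5, 30.9 and 35.5 CPM in controls and 16.5, 24.8 and 38.9 CPM in knockouts. Of 8 cold knockouts, 1 lay above the median of the cold controls and 1 above that of the knockouts at room temperature, with overlap in both cases. Cold averaged over genotypes gave -0.19 ± 0.10 (95% interval -0.39 to 0.01, adjusted p = 0.288). Knockouts were lower in the cold by -0.26 ± 0.14 (95% interval -0.54 to 0.02, adjusted p = 0.832). Both values missed the threshold.

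Sqle, the epoxidase that acts on squalene, was near the detection limit at 0 to 19 counts per library. Its lowest, median and highest levels were 0, 0.960 and 2.25 CPM in controls and 0.192, 1.07 and 2.46 CPM in knockouts at room temperature, and 0, 0.969 and 1.62 CPM in controls and 0.326, 0.915 and 1.61 CPM in knockouts in the cold. Control 1 at room temperature and control 17 in the cold had 0 counts. There a floor of 3 counts allows up to 0.343 and 0.349 CPM of the raw library total. These bounds are without the trimmed mean scaling of the other levels. The cold change of Sqle had 95% intervals of -1.09 to 1.0 in controls and -1.20 to 0.89 in knockouts. A change within those bounds could not be told from the spread between these libraries, in which counting error and differences between animals were not separated.

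Cyp51 removes a methyl group from lanosterol. It stood at 8.32, 11.7 and 15.9 CPM in controls and 10.5, 11.9 and 20.7 CPM in knockouts at room temperature. In the cold it stood at 9.61, 11.1 and 13.6 CPM in controls and 9.91, 11.9 and 17.5 CPM in knockouts. The medians of the 4 groups lay within 1 CPM of each other, and the highest animal was a knockout at room temperature. The cold difference was -0.12 ± 0.15 in controls and -0.03 ± 0.15 in knockouts (adjusted p = 0.730 and 0.973).

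Insig1 holds SCAP and SREBP in the endoplasmic reticulum and is itself a target of SREBP. Its levels were 0.417, 1.82 and 3.91 CPM in controls and 0.384, 1.68 and 4.04 CPM in knockouts at room temperature. In the cold they were 0.281, 1.20 and 3.41 CPM in controls and 0.905, 1.84 and 4.45 CPM in knockouts. Animals of 1 group thus differed far more than group medians did. The changes were -0.47 ± 0.48 with cold in controls, 0.10 ± 0.47 with cold in knockouts and 0.62 ± 0.47 between the genotypes in the cold (adjusted p = 0.666, 0.971 and 0.949).

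For Hmgcs1, Fdps, Fdft1 and Cyp51 the 95% intervals of the cold change, in either genotype, lay between 0.696-fold and 1.34-fold. Those of Idi1 ran from 0.726-fold to 1.45-fold in controls and from 0.922-fold to 1.86-fold in knockouts. Insig1 and Sqle are measured less tightly than these. In order of mean CPM the genes ran Hmgcs1, Fdps, Fdft1, Cyp51, Idi1, Insig1 and Sqle, and over all animals the ranges of each neighbouring pair overlapped.

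**Figure D2:**
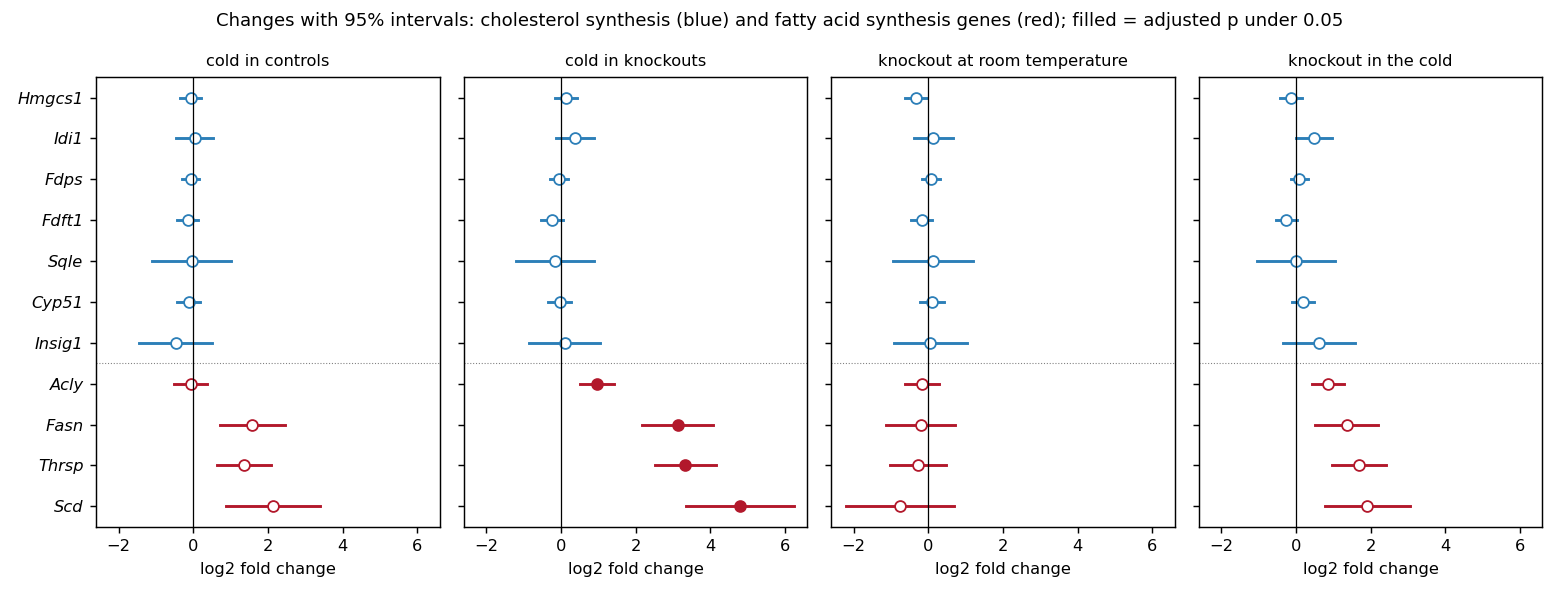
Log2 change (horizontal axis) with 95% interval for the 7 genes (blue) and 4 genes of fatty acid synthesis (red) in 4 comparisons. The red genes are the 4 of 13 tested that passed for cold in knockouts, and the others of that list are not drawn. Filled points have an adjusted p under 0.05. No blue point is filled, and they run from -0.47 (Insig1, cold in controls) to 0.62 (Insig1, knockout in the cold), while Acly, Fasn, Thrsp and Scd are filled for cold in knockouts.

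Promoter sequence was examined because Fdps ran opposite to Idi1 and Cyp51 across animals, as described after the sequences. The 3 genes were chosen after their values were seen, since no member passed a test. Each line gives the 250 bases before the start of the gene, 5' to 3' on the strand of the gene, from RefSeq's GRCr8 assembly, while the counts rest on Rnor 6.0. The capitals mark CCAAT, the motif bound by the NF-Y factor that often works beside SREBP, or ATTGG, the same motif on the other strand. The windows are chr17:66547525-66547774 (minus strand) for Idi1, chr4:30991443-30991692 (plus strand) for Cyp51 and chr2:176804817-176805066 (minus strand) for Fdps.
Idi1: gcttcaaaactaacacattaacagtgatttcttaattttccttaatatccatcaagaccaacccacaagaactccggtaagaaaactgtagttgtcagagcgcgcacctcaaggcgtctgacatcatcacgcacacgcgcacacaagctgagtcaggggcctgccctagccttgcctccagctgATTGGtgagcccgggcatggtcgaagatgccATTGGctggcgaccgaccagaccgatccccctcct
Cyp51: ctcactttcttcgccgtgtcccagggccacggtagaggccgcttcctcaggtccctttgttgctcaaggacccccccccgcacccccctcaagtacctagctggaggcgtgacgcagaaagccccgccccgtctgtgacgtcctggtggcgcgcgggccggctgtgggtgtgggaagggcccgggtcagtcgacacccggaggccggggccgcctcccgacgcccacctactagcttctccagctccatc
Fdps: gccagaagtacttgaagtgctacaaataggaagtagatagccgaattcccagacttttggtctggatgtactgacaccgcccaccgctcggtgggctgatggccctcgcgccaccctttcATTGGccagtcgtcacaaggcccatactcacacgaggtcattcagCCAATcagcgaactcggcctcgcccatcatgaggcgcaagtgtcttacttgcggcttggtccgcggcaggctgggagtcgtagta
Idi1 holds 2 such motifs and Fdps holds 2, while the Cyp51 window holds none. RefSeq's table held promoters of 5 of the 7 members. In windows of 300 bases (250 before and 50 after the start), CCAAT on either strand was in 4 of these 5 and in 37.5% of 33469 promoters. A sterol element, TCACNCCAC on either strand, was in 0 of 5 and in 1.12% of all promoters. A window without these letters says nothing about the factor.

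Across the 31 animals the correlations between the 7 genes were of mixed sign. Of 21 pairs of members, 11 had a positive and 9 a negative Pearson correlation of log2 levels (median 0.15, range -0.54 to 0.65). The pair of Hmgcs1 and Cyp51, at -0.0 after rounding, was counted as neither. With group means removed, 13 pairs were positive and 8 negative, with a median of 0.10. All 31 points share a normalization, and correlations are given as a description. Fdps was negative with 5 of its 6 partners, among them Idi1 and Cyp51, whose promoters are shown above.

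Hmgcs1 and Sqle varied together from animal to animal, with r = 0.58 (Spearman 0.61, and 0.41 without the 2 animals farthest in Hmgcs1) and 0.71 within groups. Cyp51 and Insig1 had r = 0.63 within groups. Fdps and Hmgcs1 had r = -0.54 (Spearman -0.50, and -0.45 without the 2 animals farthest in Hmgcs1). Fdps and Idi1 had r = -0.51 (Spearman -0.39, and -0.40 without the 2 animals farthest in Fdps). Sqle and Insig1 had few counts, which limits their correlations.

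**Figure D3:**
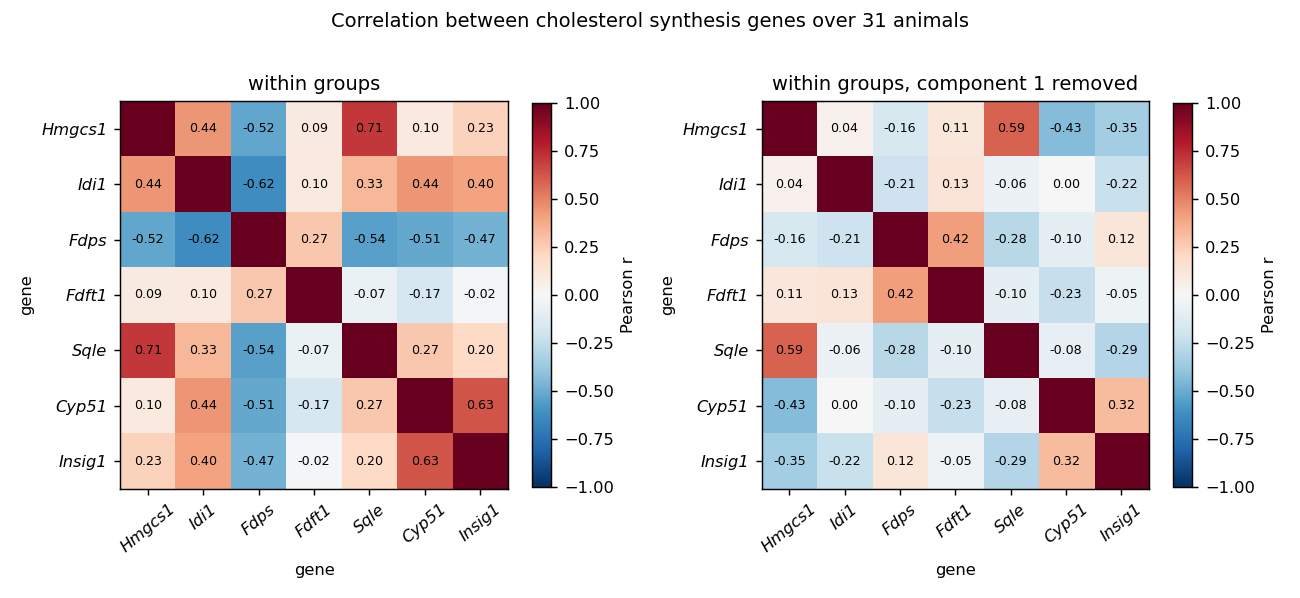
Pearson correlation (colour, from -1 to 1) between the 7 genes over 31 animals, within groups (left) and also with component 1 removed (right). Fdps is negative with Hmgcs1, Idi1, Sqle, Cyp51 and Insig1 on the left, and the Hmgcs1 and Sqle pair is the strongest on the right, at 0.59.

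The members also ran with the first principal component of all genes, which held 35.3% of the variance and overlapped among the groups. Idi1 had r = -0.67 with it, Insig1 -0.72, Cyp51 -0.63, Hmgcs1 -0.52 and Sqle -0.51, while Fdps had 0.66 and Fdft1 -0.02. The median size of r over all genes was 0.50, and between 23% and 97.5% of all genes were at least as far from 0 as each member. The component itself had r = 0.68 with the muscle fibre markers, -0.55 with immediate early genes and 0.28 with log2 total count. Their part in the members' pattern was not tested.

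With component 1 and the groups removed, 7 pairs were positive and 13 negative, with a median of -0.08. The pair of Idi1 and Cyp51, at 0.0 after rounding, was counted as neither. Hmgcs1 and Sqle kept 0.59 and Cyp51 and Insig1 had 0.32. Fdps came to -0.21 with Idi1, -0.10 with Cyp51, -0.16 with Hmgcs1, -0.28 with Sqle and 0.12 with Insig1. Fdps and Fdft1, the successive enzymes at farnesyl diphosphate, had 0.42.

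**Figure D4:**
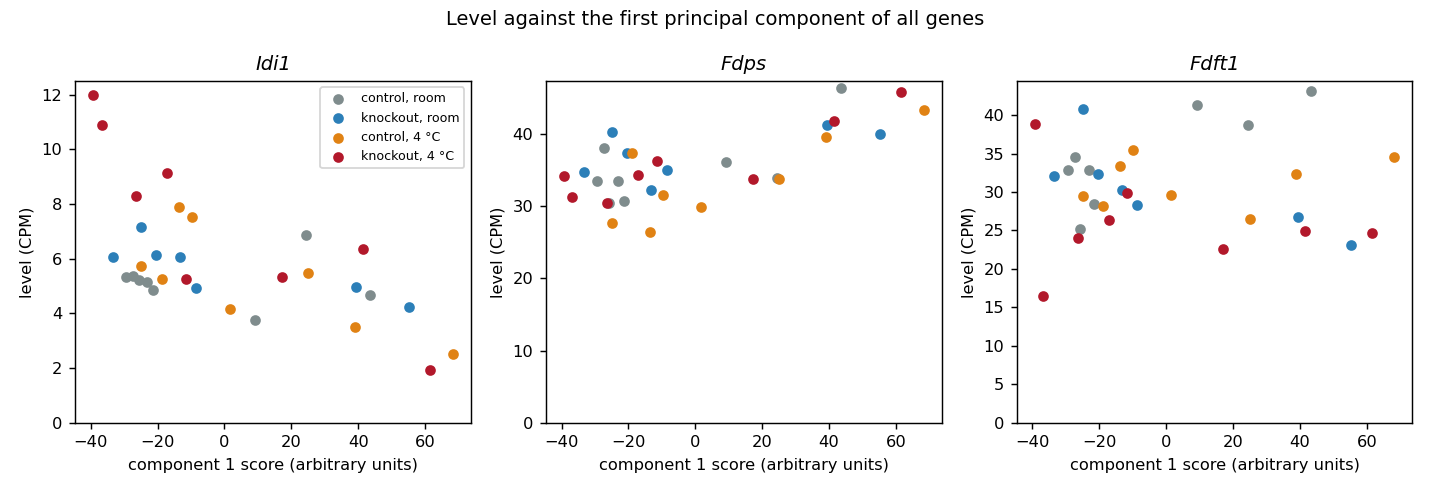
Level in CPM (vertical axis) against the score of component 1 (horizontal axis, arbitrary units) for Idi1, Fdps and Fdft1, with 1 point per animal coloured by group. Idi1 is lower and Fdps higher at high scores (r = -0.67 and 0.66), and Fdft1 shows no trend (r = -0.02).

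The genes most like the mean of the 7 standardized members were Mrpl10 (r = 0.87), Kdm8 (0.85), Pxdc1 (0.84), Parn (0.84), Thada (0.84), Mettl18 (0.83), Rchy1 (0.82), Smg8 (0.82), Mtfmt (0.82) and Map2k1 (0.82) over 31 libraries. All 10 had r between -0.97 and -0.87 with component 1, and the member mean had -0.81. Fdps had r = -0.38 with the mean it belongs to.

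Of 16 other listed enzymes of the pathway, 11 were in the table and 10 were tested, and 0 passed in any comparison. Ebp, a sterol isomerase, had 0.33 ± 0.12 with cold averaged over genotypes (adjusted p = 0.0894), 0.19 ± 0.16 with cold in controls and 0.47 ± 0.17 with cold in knockouts (adjusted p = 0.607 and 0.151).

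Sensing and processing of SREBP (13 listed, 12 tested) and uptake and transport of cholesterol (11 listed, 9 tested) also had 0 genes passing in any comparison. Srebf2, which encodes SREBP2, had 0.25 ± 0.15 with cold in controls and 0.15 ± 0.15 in knockouts. Of 8 tested genes of efflux and storage, 1 rose with cold in knockouts, against 1.38% of all genes. The same 1 rose with cold averaged over genotypes, against 5.65%. It was Apoe, which encodes a protein of the lipoproteins that carry cholesterol. Knockouts at room temperature had 124, 142 and 176 CPM (lowest, median, highest) and cold knockouts 178, 224 and 425 CPM, with no overlap. The change was 0.73 ± 0.19 in knockouts (adjusted p = 0.0414) and 0.70 ± 0.13 averaged over genotypes (adjusted p = 0.00109). In controls it was 0.67 ± 0.18 and did not pass (adjusted p = 0.0652), and the interaction was 0.06 ± 0.26 (adjusted p = 0.98), so no difference between genotypes was shown. The knockout call was lost under 14 of 41 other settings (adjusted p from 0.0108 to 0.102 over all 41), the averaged call under 0 of 40. Of the 14, 11 left out a single animal: room temperature knockout 9, 10, 11, 13, 14 or 15, cold control 18, or cold knockout 26, 28, 30 or 31. The other 3 were the fit of the compared groups only, the adipocyte markers as a covariate (0.50, adjusted p = 0.0922) and the omission of 7 libraries at the upper end of component 1.

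Apoe is also made by macrophages. In the same libraries 2 of 12 macrophage and neutrophil markers (Cd163 and S100a8) rose with cold in controls, against 0.853% of all genes. With cold in knockouts 1 of 12 rose (Cd163), against 1.38%. With cold averaged over genotypes 4 of 12 rose (Cd163, S100a8, S100a9 and C1qb), against 5.65%. The summed level of the 12 was 99.2 to 318 CPM in controls and 208 to 429 CPM in knockouts at room temperature. In the cold it was 261 to 409 CPM in controls and 298 to 526 CPM in knockouts. The ranges overlapped, and no marker was at 0. Their part in the Apoe result was not tested, and in whole muscle more cells of a type and more RNA per cell cannot be told apart.

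Among 9 tested genes of the isoprenoid branches, 1 rose with cold in knockouts, against 1.38% of all genes. The same 1 rose with cold averaged over genotypes, against 5.65%. It was Dhdds, a subunit of the enzyme that makes the dolichol backbone. Knockouts at room temperature averaged 14.0 ± 1.96 CPM (SD, n = 7) and cold knockouts 20.6 ± 5.35 CPM (SD, n = 8), with overlap. The change was 0.56 ± 0.15 in knockouts (adjusted p = 0.0473, lost under 24 of 41 other settings, and from 0.00722 to 0.135 over all 41) and 0.46 ± 0.10 averaged over genotypes (adjusted p = 0.00599, lost under 0 of 40). Of single animals left out, the knockout call held without room temperature control 1, 2 or 4, room temperature knockout 10, cold control 16, 17 or 23, or cold knockout 24, 27 or 28, and was lost without any of the other 21.

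Fatty acid synthesis was listed as the SREBP1 route. Of its 13 tested genes, 4 rose with cold in knockouts (Thrsp, Scd, Acly and Fasn), against 1.38% of all genes. With cold in controls 0 of 13 passed, against 0.853%. In controls the same 4 had 2.57-fold (Thrsp, adjusted p = 0.0579), 4.38-fold (Scd, 0.0852), 0.952-fold (Acly, 0.896) and 2.98-fold (Fasn, 0.0673), and Thrsp ranges did not overlap between temperatures in either genotype. The interaction passed for 0 of 13 genes, against 0% of all genes, so a difference between genotypes in the cold response was not shown. At an unadjusted p under 0.05 it was higher for 4 of 13 and lower for 0, against 7.31% of all genes. Between genotypes in the cold 0 of 13 passed, against 0.00992%. At an unadjusted p under 0.05, 5 of 13 were higher there and 0 lower, against 6.28%. Fasn, the fatty acid synthase, rose by 3.13 ± 0.47 on the log2 scale in knockouts, which is 8.77-fold with a 95% interval of 4.53 to 17. Scd, the stearoyl-CoA desaturase, ran at 0, 0.775 and 3.61 CPM in knockouts at room temperature and 3.47, 39.0 and 76.3 CPM in cold knockouts. With cold averaged over genotypes Scd, Fasn and Thrsp rose and Me1, malic enzyme, fell by 0.30 on the log2 scale (adjusted p = 0.0375). The Me1 call was lost under 14 of 40 other settings, with adjusted p up to 0.205. Of these, 11 left out a single animal: room temperature control 2, 4 or 8, room temperature knockout 9 or 11, cold control 17, 20, 21 or 22, or cold knockout 28 or 30. The other 3 left out controls 1 and 2 at room temperature, left out the 7 libraries at the upper end of component 1, or took the adipocyte markers as a covariate (-0.22, adjusted p = 0.205). Acly, which supplies the acetyl-CoA that both routes use, rose by 0.97 ± 0.22 in knockouts (adjusted p = 0.0199). That call was lost under 2 of 41 settings, without room temperature knockout 14 and with only the compared groups fitted (adjusted p up to 0.104).

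Of 9 tested adipocyte markers, 1 (Retn) rose with cold in knockouts, against 1.38% of all genes. With cold in controls 0 of 9 passed, against 0.853%. At an unadjusted p under 0.05, 5 of 9 were higher and 0 lower with cold in knockouts, against 14.3% of all genes in either direction. In controls 1 of 9 was higher and 1 lower, against 14.2% of all genes. The log2 changes of the 9 markers ran from 0.05 to 2.41 in knockouts, with a median of 0.9, against a median of 0.44 in controls. Their summed level (lowest, median, highest) was 401, 548 and 617 CPM in knockouts at room temperature and 492, 857 and 1290 CPM in cold knockouts, with overlap, and 169, 524 and 701 CPM against 431, 514 and 764 CPM in controls. With their mean level as a covariate the log2 cold change in knockouts was 2.81 for Scd, against 4.80 without it. It was 2.41 for Fasn (3.13 without), 2.58 for Thrsp (3.33 without) and 0.96 for Acly (0.97 without). With the covariate Scd, Fasn, Thrsp and Acly, all 4, passed (adjusted p = 0.00555, 0.00288, 1.17e-05 and 0.019). The part of adipocytes in these changes was not tested. The difference between the cholesterol and fatty acid genes was not tested.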

How the data were processed

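Gastrocnemius RNA from 31 rats was made into QuantSeq 3' libraries. The authors deposited raw read counts per gene and a table of normalized signal (counts over 1 size factor per library). The submitters' processing notes name Rnor 6.0 and DESeq2 1.22.2. Aligner, counter and strand: not given in the sources used here, so overlapping and antisense genes cannot be told apart. Only the counts were tested; the signal table supplied the symbols. The lowest total of a listed gene was 93 counts, so rare genes had been left out before deposition.

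Differences were tested in edgeR 4.0.16 (R 4.3.3) with the quasi-likelihood test, trimmed mean of M values scaling, filterByExpr (minimum count 10, minimum total 15), 1 mean per group over all 31 libraries (27 residual degrees of freedom), and Benjamini-Hochberg adjustment over 10082 genes with a threshold of 0.05. DESeq2 1.42.0 was an alternative, as were another scaling, 2 filters, a robust fit, 2 covariates and left-out libraries. Log2 levels used a prior count of 2. The procedure was tested on simulated counts. Each library is 1 animal, so p-values measure the spread between animals; the labels name no litter, cage or batch. Counts may include PCR copies, so the count floor covers counting error only. No pair of libraries in a group matched within sampling noise (chi-square over its degrees of freedom was at least 5.62 in 105 pairs). All members were described; of each other list every gene that passed and up to 4 others by smallest p were eligible to be named, and Srebf2, Tmem97 and the 3 promoters were chosen after values were seen. The members and lists were chosen with earlier results of these data known. RefSeq's GRCr8 tables gave the promoters. Some genes of the lists are not reported here by name.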

Additional observations from a re-analysis of the deposited data

Results flagged for a closer look

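In 56 pairings of a gene with a group, 3 had 1 animal far from the rest of its group by Dixon's gap test. Chance flags about 1 in 20 such groups, or about 3 here. Cyp51 was at 20.7 CPM in knockout 14 at room temperature, where the next animal had 13.9 CPM. Apoe was at 425 CPM in knockout 28 in the cold, where the next had 282 CPM. Scd was at 7.10 CPM in control 6 at room temperature, where the next had 3.10 CPM.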

How the results depend on the processing

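The 7 members stayed at 0 calls in all 244 recounts under 41 other settings (31 that left out 1 library and 10 others). Fitting only the groups compared was not run for the average and the interaction, which use all groups. A member that a setting's filter removed counted as not called there. The stricter filter (mean CPM of at least 5) removed Insig1 and Sqle, so neither was tested under it. The lowest adjusted p of any member tested was 0.0975, for Fdft1 with cold averaged over genotypes. The Hmgcs1 difference between genotypes at room temperature kept its sign, between -0.40 and -0.24. Of 42 member changes (7 genes in 6 comparisons, none called), 17 changed sign under at least 1 setting: Sqle in all 6 comparisons, and among others Insig1 with cold in knockouts (6 settings, -0.16 to 0.35), Idi1 with cold in controls (4, -0.07 to 0.21), Cyp51 with cold in knockouts (3, -0.13 to 0.09) and Hmgcs1 with cold in controls (2, -0.13 to 0.04). Counts over all genes moved more: leaving out 1 library gave 36 to 154 calls for cold in controls (86 as reported), 56 to 231 for cold in knockouts (139), 451 to 688 for cold averaged over genotypes (570), 0 to 1 for knockout at room temperature (0), 0 to 3 for knockout in the cold (1) and 0 to 1 for the interaction (0). DESeq2 gave 220, 328, 1, 8 and 1 for cold in controls, cold in knockouts, knockout at room temperature, knockout in the cold and the interaction. With component 1 as a covariate the counts were 379, 674 and 1274 for the 3 cold comparisons and 8 for knockout in the cold. With the adipocyte markers as a covariate they were 38 for cold in controls, 564 for cold in knockouts, 31 for knockout in the cold and 5 for the interaction. Without controls 1 and 2 at room temperature they were 38 for cold in controls, 379 for cold in knockouts and 4 for knockout in the cold. Fitting only the groups compared gave 53 for cold in knockouts and 0 for knockout in the cold, and the stricter filter gave 0 for knockout in the cold. Omitting 7 libraries at the upper end of component 1, a choice made after seeing the data, gave 53 for cold in controls and 0 for knockout in the cold. The cause of these shifts was not tested. No paired analysis was possible because the labels number every animal separately. Sqle (0 to 19 counts) and Insig1 (2 to 41 counts) had the fewest counts of the members, and counting error was not separated from the spread between animals.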

Other observations

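Tmem97, which binds a sterol transporter, had r = -0.69 with Hmgcs1 over 31 animals and 0.60 with Fdps, and with groups and component 1 removed it had -0.58 with Hmgcs1 and 0.14 with Fdps. These values are descriptions over animals that share a normalization, with no test.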
